A study of Mus musculus with 10 samples.

Results

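The genes of homologous recombination and of the Fanconi anaemia pathway, with the checkpoint kinases that act beside them, were compared between Mes and Epi cell lines grown from mouse lung cancer. The list held 41 gene symbols, and 40 of them were named on the array; no probe was named Mdc1. Each gene was read from 1 probe, the brightest of its probes that cleared the scanner software's background test on every array of Mes, of Epi, or of both. All 40 chosen probes cleared that test on all 10 arrays, so no gene was taken in through 1 group alone; brightness chose the probe, and signal levels are given as a description. They stood among 13202 genes measured in the same way. The lines were single clones picked from mouse small cell lung cancer that is not neuroendocrine (non-NE), and each gave 1 array. The titles place 5 lines in Mes and 5 in Epi without spelling the names out. All 10 lines share the genetic background RbL/L, Trp53L/L, the notation for loxP-flanked Rb1 and Trp53, were kept in RPMI1640 with 10% serum, and had no treatment. The labels do not say how many tumours or mice the clones came from, so the p-values describe the spread between these 10 lines and may be too small if clones share a tumour. Some lines were more alike than others over the tested probes. Pearson r was 0.986 for Mes2 with Mes3, where the remaining Mes pairs ranged from 0.948 to 0.969. Within the Epi group, any pairing among Epi3, Epi4, Epi5 gave r between 0.981 and 0.984, where the remaining pairs ranged from 0.959 to 0.969. Whether the lines that were most alike share a tumour was not tested.

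Homologous recombination repairs a double-strand break by copying an intact sister strand. The MRE11-RAD50-NBN complex and its helpers trim the broken ends, ATM and ATR kinases signal the damage, and BRCA1, PALB2 and BRCA2 prepare the trimmed strand to pair with its template. Fanconi proteins mark crosslinked DNA through ubiquitination of FANCD2 and FANCI, and structure-specific helicases and nucleases resolve what is left; many of these genes are induced as cells enter the S phase, under E2F factors that RB restrains.

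Signals are given as log2 of quantile-normalized fluorescence intensity, differences are Mes minus Epi, and a gene was called when limma's p-value, adjusted by the Benjamini-Hochberg method over 24475 tested probes, was under 0.05. Between 60.4% and 64.4% of the 41174 probes on an array cleared background. Rb1 signal ran from 6.63 to 7.25 in Mes and from 6.84 to 7.66 in Epi lines (adjusted p = 0.61), and Trp53 signal from 9.17 to 9.76 and from 8.90 to 9.28 (adjusted p = 0.18); where these probes lie relative to the floxed exons is not given, so they check nothing about the alleles. Of 12 neuroendocrine markers 5 (Neurod1, Insm1, Chgb, Grp and Scg2) cleared background on no array, while Ncam1 (14.26 in Mes and 13.39 in Epi) and Uchl1 (13.35 and 11.20) were bright; the summed intensity of the 12 ran from 16232 to 71152 in Mes and from 9944 to 28170 in Epi lines. The group names were only partly borne out by markers: Epcam cleared background on no array, Cdh1 and Krt8 only in Epi lines, and 4 of 10 mesenchymal markers were called lower and 1 higher in Mes lines, with Vim at 16.16 and 16.27. Pecam1, Cdh5, Lyz2 and Itgam cleared background nowhere, but 5 of 7 leukocyte and 3 of 5 endothelial markers did so on at least 1 array. Of the 4 leukocyte markers tested 1 was called higher in Mes lines. The 1 endothelial marker tested was called lower (-2.45). Slide 1 held Epi1, Epi3, Epi4 and Epi5, slide 3 held Mes1, Mes2 and Mes5, and slide 2 held Mes3, Mes4 and Epi2, so apart from slide 2 the slide and the group cannot be told apart.

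Of the 40 repair genes 14 were higher in Mes lines and 0 were lower. That is 35.0% of them called higher, where 15.7% of all genes were called higher and 12.7% lower (28.4% in either direction). An unadjusted p under 0.05 was reached by 21 of the 40 (52.5%), against 41.3% of all genes. The median difference over the 40 was 0.46 against 0.03 over all genes, with 32 differences above 0 and 8 below; after normexp background correction it was 0.26. In 6 genes (Topbp1, Atm, Mre11a, Rad21, Palb2 and Atr) every Mes line was above every Epi line, 15% of the 40 against 10.6% of all genes. By role, 5 of 8 checkpoint genes, 3 of 5 end resection genes, 4 of 11 BRCA and mediator genes, 2 of 3 other Rad genes, 0 of 9 Fanconi genes and 0 of 4 helicases and nucleases were called. Away from chromosomes 4 and 9 it was 1 of 4 checkpoint genes, 2 of 3 end resection genes, 2 of 9 BRCA and mediator genes and 1 of 2 other Rad genes; 4 of the 5 checkpoint calls lie on chromosome 9, where 58.2% of all genes were called higher. Unadjusted p under 0.05 was reached by 2 of the 9 Fanconi genes and by 1 of the 4 helicases and nucleases, both shares below the 41.3% of all genes; the differences between these roles were not tested. Each array read the RNA of a whole culture, so fewer cells with a transcript and less of it per cell cannot be told apart. Leaving out Epi2 raised the calls to 16, and leaving out Mes3, Epi3 or Epi5 lowered them to 9.

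**Figure D1:**
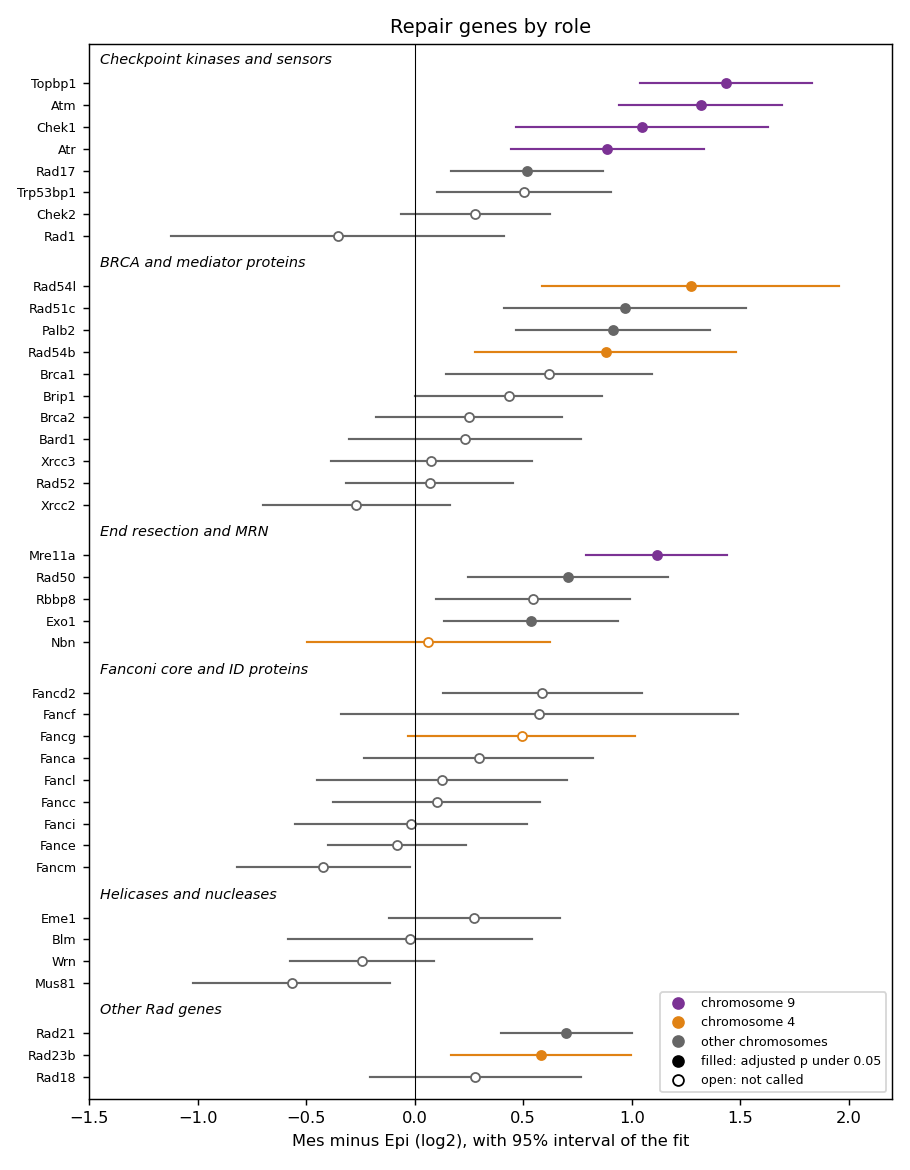
Mes minus Epi difference (log2) of the 40 repair genes, grouped by role, with the 95% interval of the limma fit; filled points have an adjusted p under 0.05, and colour marks chromosomes 9, 4 and the others. The 5 chromosome 9 genes all lie to the right, from 0.89 to 1.43, and no filled point lies below 0.

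Differences varied by chromosome, and each repair gene was therefore read beside the other genes of its chromosome. The difference ran high along chromosomes 4 and 9 as a whole in these lines and low along chromosome 10 (median -0.46 over 602 genes). All 5 repair genes of chromosome 9 were called higher, and their median difference was 1.11, where 58.2% of the 748 genes measured on that chromosome were called higher with a median of 0.71. These 5 genes are spread along the chromosome: on mm9 the chosen probes lie at chr9:14637146-14638095 for Mre11a, chr9:36517425-36517484 for Chek1, chr9:53245871-53245930 for Atm, chr9:95851956-95852015 for Atr and chr9:103252324-103252383 for Topbp1. Of 5 on chromosome 4 (Rad54l, Rad54b, Rad23b, Fancg and Nbn) 3 were called, with a median of 0.58, where 43.7% of 820 genes were called higher with a median of 0.55. Chromosome 10 held none of the repair genes. On the remaining chromosomes 6 of 30 were higher (20%) and 0 lower, with a median of 0.28 and 22 differences above 0, where 11.4% of 11032 genes were higher, 12.6% lower and the median was -0.01. The median of the 30 was 0.13 after normexp background correction and 0.17 without Epi5. Those 6 were Rad21 on chromosome 15, Palb2 on 7, Rad51c and Rad50 on 11, Rad17 on 13 and Exo1 on 1. Groups that did not overlap were found for 4 of the 5 chromosome 9 genes, against 50.9% of all genes there, for 0 of 5 on chromosome 4, against 28.7%, and for 2 of 30 elsewhere (6.67%), against 7.01%. The count of 6 fell to 3 without Mes3, Epi3 or Epi5 and rose to 8 without Epi2.

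**Figure D2:**
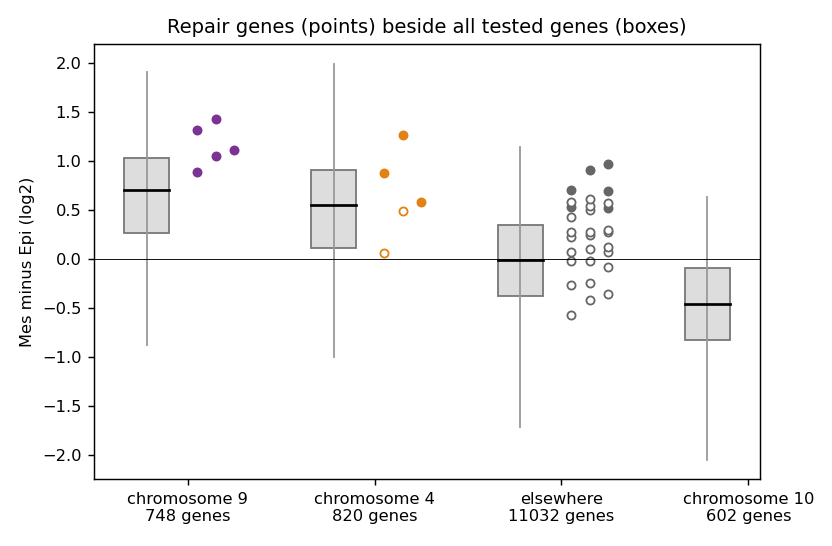
Mes minus Epi difference (log2) of the repair genes (points, filled when called) beside all measured genes of the same chromosomes (boxes from the 25th to the 75th percentile with the median, lines from the 5th to the 95th). Chromosome 9 points lie between 0.89 and 1.43, beside a box from 0.27 to 1.04, and the elsewhere points spread around a median of 0.28 beside a box centred near 0.

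Promoter sequence was read to see what the genes share beyond their position. RefSeq windows on GRCm38.p6, 250 bases before to 50 after each start site, were at hand for 31 of the 40 genes. An E2F word (TTTGGCGC, TTTCGCGC, TTTCCCGC or TTTGCCGC, on either strand) stood in the windows of 6 of the 31 genes (19.4%), against 4.59% of 10159 measured genes with a window. Those 6 were Topbp1 and Rad51c among 10 called genes and Bard1, Brca2, Chek2 and Fancg among 21 that were not called. A CCAAT box (CCAAT, on either strand) stood in 15 of the 31 (48.4%) against 43.2%, and the word TTTGAA, found in cell cycle promoters, in 2 (6.45%) against 14.4%. The median window of the repair genes held 24 CG dinucleotides, against 20 for the measured genes. No E2F word contains CCAAT or TTTGAA, and a match marks letters only, not a bound site. The windows of the 3 chromosome 9 genes with the lowest adjusted p are shown with those of Rad51c and Brca2, which carry an E2F word on opposite sides of the call; capitals mark E2F words and CCAAT boxes.
Topbp1, chr9:103305077-103305376, + strand: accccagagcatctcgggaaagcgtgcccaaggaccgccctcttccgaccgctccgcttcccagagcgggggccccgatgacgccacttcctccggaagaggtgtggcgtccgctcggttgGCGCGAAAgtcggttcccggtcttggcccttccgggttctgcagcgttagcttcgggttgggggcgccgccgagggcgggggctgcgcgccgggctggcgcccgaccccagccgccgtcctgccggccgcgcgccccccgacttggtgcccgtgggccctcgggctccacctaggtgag
Atm, chr9:53536622-53536921, - strand: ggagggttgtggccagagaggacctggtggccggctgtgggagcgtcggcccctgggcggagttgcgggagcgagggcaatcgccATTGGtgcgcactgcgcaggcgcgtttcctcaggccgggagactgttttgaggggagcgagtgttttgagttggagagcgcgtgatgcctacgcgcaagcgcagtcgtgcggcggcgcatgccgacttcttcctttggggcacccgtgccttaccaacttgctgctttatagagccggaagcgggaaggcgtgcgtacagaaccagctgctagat
Mre11a, chr9:14784404-14784703, + strand: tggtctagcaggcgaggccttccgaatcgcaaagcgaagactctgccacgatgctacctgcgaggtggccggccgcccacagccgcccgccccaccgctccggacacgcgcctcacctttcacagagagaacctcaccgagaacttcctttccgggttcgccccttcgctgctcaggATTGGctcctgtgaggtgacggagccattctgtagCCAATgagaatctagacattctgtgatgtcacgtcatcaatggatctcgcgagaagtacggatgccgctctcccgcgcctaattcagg
Rad51c, chr11:87404457-87404756, - strand: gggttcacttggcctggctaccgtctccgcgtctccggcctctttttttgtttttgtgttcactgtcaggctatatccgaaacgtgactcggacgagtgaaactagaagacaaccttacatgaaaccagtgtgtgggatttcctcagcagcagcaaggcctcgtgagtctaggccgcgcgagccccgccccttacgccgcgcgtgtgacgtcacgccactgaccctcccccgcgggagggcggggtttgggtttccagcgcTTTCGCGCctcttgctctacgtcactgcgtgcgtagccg
Brca2, chr5:150522371-150522670, + strand: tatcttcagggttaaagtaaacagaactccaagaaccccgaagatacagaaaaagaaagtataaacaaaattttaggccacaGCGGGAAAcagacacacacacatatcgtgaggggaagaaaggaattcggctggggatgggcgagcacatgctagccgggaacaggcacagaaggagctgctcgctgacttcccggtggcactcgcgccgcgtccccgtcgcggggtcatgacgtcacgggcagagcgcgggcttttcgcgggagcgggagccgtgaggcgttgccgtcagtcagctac
Topbp1 has the E2F word GCGCGAAA, whose first base lies at position -129 from the start site, Rad51c has TTTCGCGC just after its start, and Brca2 has GCGGGAAA at position -168. Atm has a single CCAAT box, Mre11a has a pair on opposite strands, and neither has an E2F word. A second Rad51c window, with its own start site further upstream, also holds an E2F word and is not printed.

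The checkpoint genes had a median difference of 0.70. Topbp1 encodes the scaffold that activates ATR at stalled forks. Its signal in Mes1 to Mes5 was 12.24, 12.28, 12.62, 12.27 and 12.27, and in Epi1 to Epi5 it was 11.35, 11.21, 10.70, 10.69 and 10.56. The Mes lines lay close together and all above the Epi lines, a difference of 1.43 ± 0.18 (SE; 2.70-fold; adjusted p = 0.000714). Atm, the kinase that answers double-strand breaks, read 9.29, 9.73, 9.68, 9.44 and 9.52 in Mes and 8.31, 8.70, 7.99, 8.12 and 7.95 in Epi lines. Again no lines overlapped, and Epi2 was the highest of the Epi lines (1.32 ± 0.17; 2.49-fold; adjusted p = 0.000810). A second Atm probe differed by 1.39. Atr, the kinase that answers exposed single strands, read 11.19, 11.84, 10.94, 11.32 and 11.32 in Mes and 10.72, 10.73, 10.14, 10.51 and 10.07 in Epi lines. Its groups were separated by a narrow margin between Mes3 and Epi2 (0.89 ± 0.20, adjusted p = 0.0100). The 3 other probes of Atr were also called higher, the dimmest of them at only 4.69 in Mes and 2.05 in Epi lines.

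Chek1, the kinase that ATR switches on, read 8.62, 9.30, 9.39, 9.31 and 9.02 in Mes and 8.46, 8.81, 7.90, 7.60 and 7.62 in Epi lines. Mes1 was below Epi2, so the groups overlapped, and the difference was 1.05 ± 0.26 (adjusted p = 0.0153), with a second probe at 1.03. Rad17, which loads the 9-1-1 clamp next to ATR, read 11.16, 11.75, 11.62, 11.87 and 11.58 in Mes and 11.13, 11.36, 10.99, 10.96 and 10.96 in Epi lines. Mes1 fell among the Epi lines; the difference was 0.52 ± 0.16 (adjusted p = 0.0335), and the call was lost, with an adjusted p of up to 0.0782, when any line other than Mes1 or Epi2 was left out. It was also lost with 75th percentile scaling (adjusted p = 0.0566). Rad17 was the only called checkpoint gene away from chromosome 9. Trp53bp1, whose product 53BP1 shields broken ends from resection, read 10.40, 10.43, 10.28, 10.56 and 10.50 in Mes and 9.32, 9.95, 9.97, 10.34 and 10.08 in Epi lines. Only Epi4 reached the Mes range, but the difference of 0.50, with a 95% interval from 0.10 to 0.90, missed the threshold (adjusted p = 0.0607); without Epi4 it was 0.60 (adjusted p = 0.0395). Chek2, the kinase downstream of ATM, differed by 0.28 (adjusted p = 0.202), while a dimmer probe of it was called at 0.55 (adjusted p = 0.0273). Rad1, a subunit of the 9-1-1 clamp, differed by -0.36 with the broad interval from -1.12 to 0.41, and Epi1 alone stood at 9.67 where the other lines ran from 7.58 to 8.49.

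**Figure D3:**
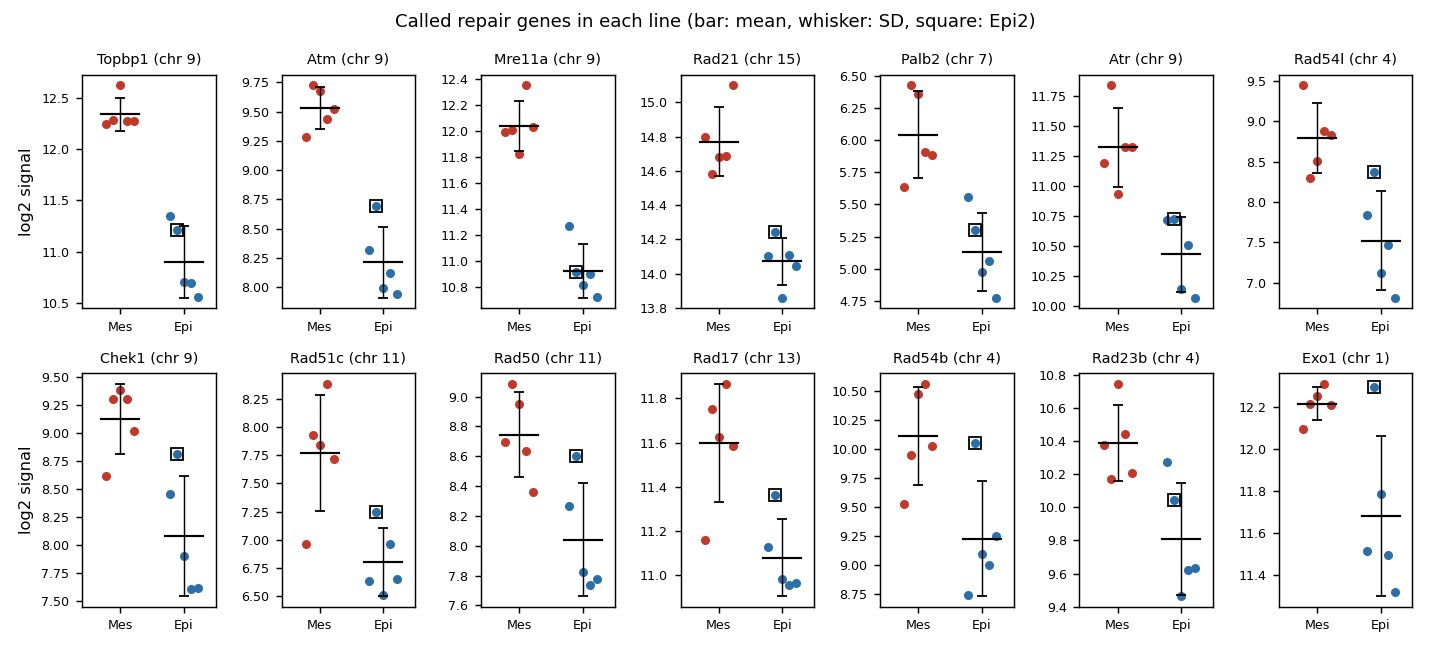
Log2 signal of the 14 called repair genes in each of the 5 Mes and 5 Epi lines (points), with the group mean (bar) and SD (whisker); squares mark Epi2, and each panel has its own axis. The groups do not overlap in Topbp1, Atm, Mre11a, Rad21, Palb2 and Atr, and in Exo1 Epi2 lies at 12.30 among the Mes lines.

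Ends are trimmed for recombination by the MRE11-RAD50-NBN complex with CtIP, encoded by Rbbp8, and the exonuclease Exo1. Mre11a, the nuclease subunit, read 11.99, 12.01, 11.82, 12.35 and 12.03 in Mes and 11.27, 10.91, 10.82, 10.90 and 10.72 in Epi lines. No lines overlapped, and the difference was 1.11 ± 0.15 (2.17-fold; adjusted p = 0.000907). Rad50, the ATPase that tethers the ends, read 8.69, 9.09, 8.95, 8.64 and 8.36 in Mes and 8.26, 8.60, 7.82, 7.74 and 7.78 in Epi lines. Epi2 stood above Mes5; the difference was 0.71 ± 0.21 (adjusted p = 0.0296), lost at up to 0.0719 without Mes2, Mes3, Epi3, Epi4 or Epi5. Nbn, the third subunit of the complex, was not called: it read from 11.43 to 12.38 in Mes and from 11.39 to 12.48 in Epi lines, a difference of 0.06 with an interval from -0.50 to 0.62 (adjusted p = 0.876), and Epi2 was the highest of all 10 lines. The differences between subunits were not tested. Exo1 read 12.10, 12.22, 12.25, 12.31 and 12.21 in Mes and 11.51, 12.30, 11.78, 11.50 and 11.32 in Epi lines. Epi2 was level with the Mes lines and the other Epi lines were below them, and the difference of 0.54 ± 0.18 was the closest to the threshold of the 14 calls (adjusted p = 0.0491). It was lost when any line but Epi2 was left out, at up to 0.109, and without Epi2 its difference was 0.69 (adjusted p = 0.00526). Rbbp8 differed by 0.54, interval 0.10 to 0.99 (adjusted p = 0.0665), with Epi1 at 12.65 above every Mes line; without Epi1 the adjusted p was 0.00937.

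Among the BRCA proteins, Palb2 was called and its partners Brca1 and Brca2 were not. Palb2 encodes the bridge between them and read 5.64, 6.43, 6.36, 5.91 and 5.88 in Mes and 5.56, 5.30, 4.98, 5.06 and 4.77 in Epi lines. The groups did not overlap, with Mes1 and Epi1 closest (0.91 ± 0.20; 1.88-fold; adjusted p = 0.00903). Brca1, the ubiquitin ligase that favours resection, read 11.04, 10.70, 10.84, 11.41 and 11.29 in Mes and 10.43, 11.01, 10.20, 10.56 and 9.98 in Epi lines. Epi2 lay inside the Mes range and the other Epi lines below it; the difference of 0.62, interval 0.14 to 1.09, missed the threshold (adjusted p = 0.0543), and it passed at 0.76 without Epi2 (adjusted p = 0.0175) and at 0.71 without Mes2 (adjusted p = 0.0488). Brca2, which acts on the trimmed single strands, read 10.37, 10.86, 10.71, 10.64 and 10.73 in Mes and 10.98, 10.56, 10.05, 10.42 and 10.06 in Epi lines. Epi1 was its highest line, and its difference of 0.25 had an interval from -0.18 to 0.68 (adjusted p = 0.357). Bard1, the partner of BRCA1, differed by 0.23 (adjusted p = 0.502). Brip1, a helicase bound to BRCA1, differed by 0.43 (adjusted p = 0.122), and by 0.58 without Mes2 (adjusted p = 0.0321), the lowest Mes line. A dimmer Brip1 probe differed by only 0.07 (adjusted p = 0.811).

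Of the 6 other genes of this role 3 were called. Rad51c, which acts with XRCC3 in recombination, read 6.97, 7.93, 7.84, 8.39 and 7.72 in Mes and 6.63, 7.25, 6.51, 6.96 and 6.65 in Epi lines. Mes1 stood among the Epi lines while the other Mes lines were above them all (0.97 ± 0.25; 1.96-fold; adjusted p = 0.0178). Rad54l, a motor protein that moves along DNA during strand pairing, read 9.45, 8.30, 8.50, 8.87 and 8.84 in Mes and 7.84, 8.38, 7.12, 7.47 and 6.81 in Epi lines. Epi2 passed Mes2, and the difference was 1.27 ± 0.31 (2.41-fold; adjusted p = 0.0136). Its paralog Rad54b read 9.52, 9.95, 10.47, 10.56 and 10.03 in Mes and 8.74, 10.05, 9.09, 8.996 and 9.25 in Epi lines. Epi2 was again among the Mes lines (0.88 ± 0.27; adjusted p = 0.0353), and the call was lost, with an adjusted p of up to 0.0828, without any line other than Mes1 or Epi2. Rad54b was also not called after normexp background correction (0.74; adjusted p = 0.0541). The other members of this role were the related genes Xrcc2 and Xrcc3 and the annealing protein Rad52. Their differences were -0.27, 0.08 and 0.07, with adjusted p from 0.327 to 0.809 and intervals reaching from -0.70 to 0.54.

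None of the 9 Fanconi genes was called, and their median difference was 0.12. Fancd2, which with Fanci forms the clamp that is ubiquitinated at a crosslink, read 10.33, 10.38, 10.47, 10.44 and 10.53 in Mes and 10.30, 10.33, 9.36, 9.77 and 9.44 in Epi lines. Epi2 was level with the lowest Mes line, Epi1 just below it, and the other Epi lines further down. The difference was 0.59, interval 0.13 to 1.05 (adjusted p = 0.0566), and it passed at 0.70 without Epi1 (adjusted p = 0.0304) and 0.71 without Epi2 (adjusted p = 0.0241). Fanci itself differed by -0.02, interval -0.55 to 0.52 (adjusted p = 0.965). The core complex subunits Fanca, Fancc, Fance, Fancf and Fancg differed by between -0.08 and 0.57, with adjusted p from 0.145 to 0.754, and the ligase Fancl by 0.12. Fancf had the dimmest chosen probe, from 3.32 to 5.29 over the 10 lines, and the widest interval of the 40, from -0.34 to 1.49. Fancm, the translocase that anchors the core complex, was lower in Mes lines by value, -0.42 (unadjusted p = 0.0404; adjusted p = 0.106). A dimmer Fancm probe differed by -0.06 (adjusted p = 0.818). A dimmer Fancg probe was called higher at 0.72 (adjusted p = 0.0223) while the other Fancg probe, at 0.37, was not.

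Of the enzymes that unwind or cut recombination intermediates, none was called. Mus81, the nuclease that cuts branched DNA, had the most negative difference of the 40 genes, -0.57 with an interval from -1.02 to -0.11 (adjusted p = 0.0623). Its signal ran from 8.04 to 9.03 in Mes and from 8.87 to 9.65 in Epi lines, and it was called lower without Mes1, at -0.68 (adjusted p = 0.0300), and after normexp background correction, at -0.42 (adjusted p = 0.0374). Eme1, the partner of MUS81, differed by 0.28 in the opposite direction (adjusted p = 0.271). The RecQ helicases Blm and Wrn differed by -0.02 and -0.24, with intervals from -0.58 to 0.54 and from -0.57 to 0.09.

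The list also held 3 Rad genes that work outside this pathway or beside it. Rad21, the cohesin subunit that closes the ring around sister strands, read 14.80, 14.58, 14.68, 14.69 and 15.10 in Mes and 14.10, 14.24, 13.86, 14.11 and 14.05 in Epi lines. Every Mes line was above every Epi line, with small spread on both sides (0.70 ± 0.14; 1.62-fold; adjusted p = 0.00509). Rad23b, which serves nucleotide excision repair and the proteasome, read 10.37, 10.17, 10.75, 10.44 and 10.21 in Mes and 10.27, 10.05, 9.46, 9.62 and 9.63 in Epi lines. Epi1 stood above Mes2 and Mes5, and the difference of 0.58 ± 0.19 (adjusted p = 0.0410) was lost, at up to 0.0973, without Mes1, Mes3, Mes4, Epi3, Epi4 or Epi5. Its probes disagreed, with a slightly dimmer probe at 0.08 (adjusted p = 0.742) and the dimmest called at 0.93. Rad18, the ligase that ubiquitinates PCNA at stalled forks, differed by 0.28 (adjusted p = 0.368).

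Other probes of the same genes were read as a check. For 28 of the 40 genes more than 1 probe was tested, with 36 probes besides the chosen ones, and 33 of these had the direction of the chosen probe. Those with the opposite direction were a Fancl probe (-0.05) and the further Xrcc2 probes (0.09 and 0.12). All 15 further probes of called genes pointed upward and 12 were themselves called. Not called were a probe of Palb2 (1.02; adjusted p = 0.0567), of Rad54l (0.84; adjusted p = 0.0792) and of Rad23b (0.08; adjusted p = 0.742). A further probe needed to clear background in 1 group only, so a dim one could enter through the group where it was brighter. The dimmest, of Atr, stood at 4.69 in Mes and 2.05 in Epi lines. Of 21 further probes of genes not called, 3 were called higher (Chek2, Fancg and Rbbp8) and 0 lower. Just outside the detection rule lay a Fanci probe with a mean signal of 3.15 and a Fancd2 probe of 2.76. The chosen Fancf probe, with a mean of 4.42, cleared background on all 5 arrays of either group.

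Line by line, the median deviation of the repair genes varied more within the Epi group than within the Mes group. Single genes went either way. The SD was 0.54 in Mes and 0.26 in Epi lines for Blm, and 0.08 and 0.46 for Fancd2. The median deviation of the 40 genes from their own means over the 10 lines was 0.18, 0.15, 0.19, 0.33 and 0.26 in Mes1 to Mes5 and -0.10, 0.15, -0.34, -0.32 and -0.40 in Epi1 to Epi5. Epi2 stood with the Mes lines, and Epi1 between them and Epi3, Epi4 and Epi5. Between 25 and 35 of the 40 genes were above their own mean in a Mes line, and 16, 24, 8, 10 and 4 in Epi1 to Epi5. Epi2 was the highest of the 5 Epi lines for 23 repair genes (57.5%), against 28.5% of all genes. Away from chromosomes 4 and 9 the same held for 16 of 30 (53.3%) against 26.4%. Along chromosome 4 the whole of Epi2 was shifted, since the median deviation of all its genes was 0.09 where the other Epi lines lay between -0.41 and -0.30. Along chromosome 9 all genes of Epi2 had a median of -0.37, near those of the other Epi lines (-0.37 to -0.27).

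A list of 20 proliferation genes was set beside these values. Its median deviation was 0.05, -0.12, 0.20, 0.26 and 0.28 in Mes1 to Mes5 and -0.16, 0.22, -0.05, -0.28 and -0.54 in Epi1 to Epi5. Epi2 was the highest Epi line and Epi5 the lowest there too, and Mes2 lay below Epi2 and Epi3. Aurka (0.75), Top2a (0.69) and Ccna2 (0.56) were called higher and Ccne1 (-0.72) lower among the 20, with a median of 0.30; 3 of 20 called higher is near the 15.7% of all genes. Pcna, the sliding clamp of replication, differed by 0.30 (adjusted p = 0.342). The part of proliferation in the repair gene differences was not tested.

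**Figure D4:**
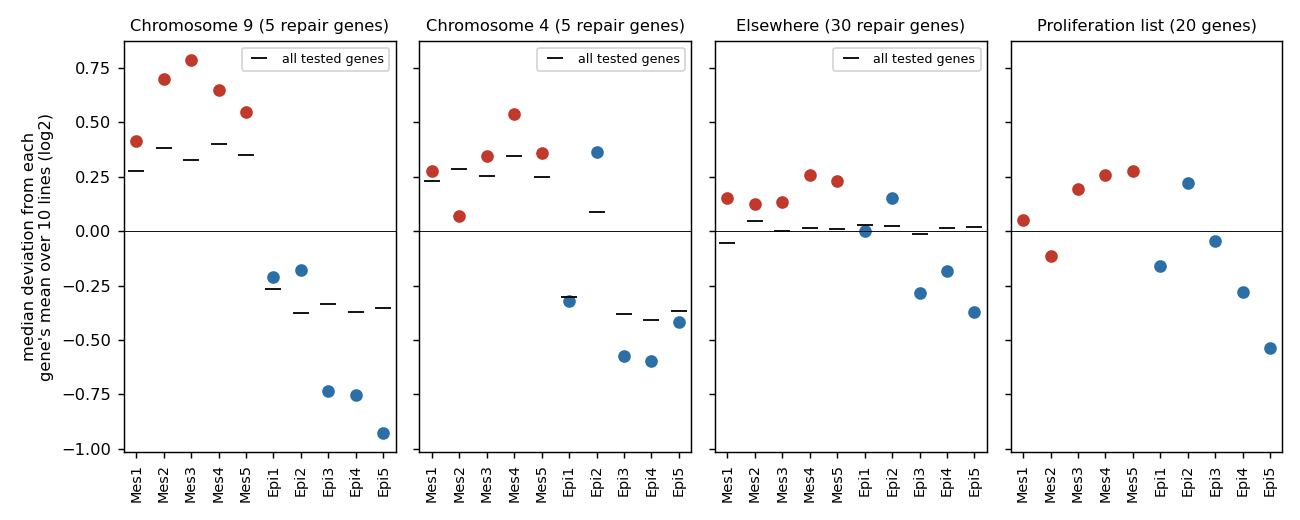
Median deviation (log2) from each gene's mean over the 10 lines, per line, for the repair genes of chromosome 9, chromosome 4 and elsewhere and for the proliferation list (points), with the median of all measured genes of those chromosomes (dashes). On chromosome 4 Epi2 lies at 0.36 with the Mes lines, and elsewhere it lies at 0.15, inside the Mes range of 0.12 to 0.26.

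Slide 2 alone allows the groups to be set side by side on 1 slide, and there the only Epi line is Epi2. The mean of Mes3 and Mes4 minus Epi2 had a median of 0.14 over the 40 genes, with 25 above 0 (62.5%), against 50.1% of all genes. The 5 chromosome 9 genes kept a median of 0.86, near the 0.73 of all chromosome 9 genes, and all 5 were above 0, from 0.40 for Atr to 1.23 for Topbp1. On chromosome 4 the median was 0.31 and elsewhere 0.11, against 0.22 and -0.02 over all genes there. Mre11a (1.17 on slide 2, 1.11 on all arrays), Palb2 (0.84 and 0.91), Rad51c (0.87 and 0.97) and Rad23b (0.55 and 0.58) were about as large on slide 2. Topbp1 (1.23 and 1.43) and Rad17 (0.38 and 0.52) were somewhat smaller there. The other 8 called genes were smaller by more than 1.5 times: Atm (0.86 and 1.32), Atr (0.40 and 0.89), Chek1 (0.53 and 1.05), Rad21 (0.44 and 0.70), Rad54b (0.47 and 0.88), Rad54l (0.31 and 1.27), Rad50 (0.19 and 0.71) and Exo1 (-0.02 and 0.54). Brca1 and Fancd2 both read 0.12 on slide 2. With slide as a fixed block limma called 0 of the 40 genes and 97 of all genes, and within slide 2 it called 0 of either, where 4 of the 40 and 2290 of 13202 genes had an unadjusted p under 0.05. Both fits set Epi2 alone against Mes3 and Mes4, with the lone Epi array assumed to vary like the others.

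**Figure D5:**
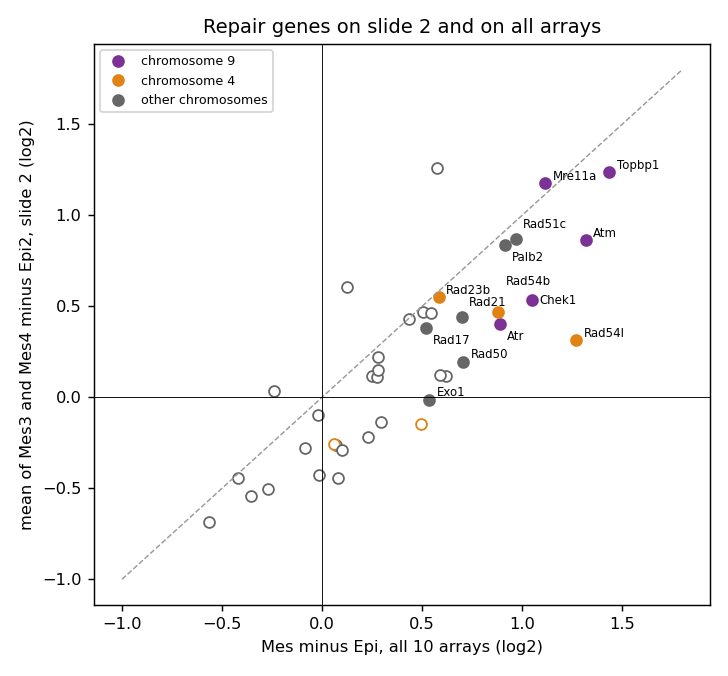
Difference of each repair gene on slide 2 (mean of Mes3 and Mes4 minus Epi2, log2) against Mes minus Epi over all 10 arrays; filled points were called, colour marks the chromosome, and the dashed line marks equal values. Topbp1, Mre11a, Palb2 and Rad51c lie near the line, and Rad54l, Rad50 and Exo1 lie well below it.

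Genes of the same pathway outside the list were also counted. Of 41 further homologous recombination and Fanconi genes measured, 15 were called higher and 1, the dissolvasome subunit Rmi1 (-0.73), lower, with a median of 0.34, against 15.7% higher and 12.7% lower over all genes; away from chromosomes 4, 9 and 10 it was 10 and 1 of 33, with a median of 0.23, against 11.4% and 12.6%. The largest were H2afx (1.63), the histone variant phosphorylated at breaks, and the ATR partner Atrip (1.26), both on chromosome 9, with Usp1 (1.33), which removes ubiquitin from FANCD2, on chromosome 4 and Rif1 (1.60), the 53BP1 effector, on chromosome 2. Of 12 genes of non-homologous end joining 2 were higher (Xrcc6, 0.89, and Aptx, 0.61) and 3 lower, among them Xrcc5 (-1.43), which encodes the Ku partner of XRCC6, with a median of -0.17. Of 28 excision repair genes 4 were higher, among them the glycosylases Mutyh (1.57, chromosome 4) and Neil1 (1.01, chromosome 9) and Parp2 (1.04), and 1, the nuclease gene Ercc5 (-0.88), was lower. Of 7 mismatch repair genes 1 was called, higher in Mes lines. Among 11 p53 target genes Sesn2 (2.02, chromosome 4) was higher and Phlda3 (-0.88) lower. The shares called higher among the end joining, excision repair and mismatch repair genes were near the 15.7% of all genes. Away from chromosomes 4, 9 and 10 they were 1 of 11, 2 of 24 and 0 of 6, against 11.4% of all genes there. The differences between these lists were not tested.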

How the data were processed

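Total RNA of each line was labelled with Cy3 and hybridised to 1 Agilent mouse array, per the labels' protocols. The authors deposited scanner files whose intensity values came from Agilent Feature Extraction 10.7, per the submitters' processing notes (10.7.3.1 per the file headers), and 2 tables of log2 values with gene names, quantile-normalized in GeneSpring 11.0 per the series text; both tables held the same values. Here the processed intensity of spots that were neither controls nor marked as outliers was averaged per probe, quantile-normalized with a floor of 1 and taken to log2. Probe names and coordinates (mm9) are those of the deposited log2 table. The Mes minus Epi model used limma 3.58.1 under R 4.3.3 (lmFit, then eBayes); p-values were adjusted by Benjamini-Hochberg over 24475 probes, and the script was tested on simulated data. Python 3.11.15 searched the RefSeq promoter windows of GRCm38.p6.

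The repair genes, the other gene lists and the tests were chosen with earlier results of these data known, so counts and medians of the lists are descriptions. Values in every line were given for called genes and for Brca1, Brca2, Fancd2, Atm, Rad51c and Trp53bp1, other members by range or count, and from each further list at most the 4 called genes with the largest differences, plus Pcna; some genes this rule covers are not reported here, though the counts hold them. Alternatives were each array scaled to its 75th percentile, normexp (offset 50) as background correction, the values of either deposited table, no filter or a filter on all 10 arrays for dim probes, a floor of 16, a mean over probes, the slide as a block (fixed, or random with statmod 1.5.0), a fit to slide 2 only, the line number as a block, a trended robust fit, removal of chromosomes 4, 9 and 10, and each array left out; slides 1 and 3 alone were added after seeing the data. Of the measured genes 56 had no chromosome and were counted as elsewhere.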

Additional observations from a re-analysis of the deposited data

Results flagged for a closer look

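Of 80 groups of 5 lines, 2 for each of the 40 repair genes, 4 held a line that stood apart from the others by more than 0.71 of the group's range (Dixon's test), and chance gives about 1 in 20 such groups. Mes3 was the highest Mes line for Topbp1, at 12.62 with the next at 12.28, on the side away from the Epi lines. Mes5 was the lowest Mes line for Bard1, at 5.37 with the next at 5.83. Mes2 was the lowest for Brip1, at 9.55 with the next at 10.24. Mes1 was the lowest for Fancf, at 3.50 with the next at 4.75, on a dim probe.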

How the results depend on the processing

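The count of 14 called repair genes was between 11 and 18 under scaling, background correction, deposited values, filters, floor, probe averaging, slide as a random block and the trended robust fit, and 13 of the 14 kept their direction under every alternative. Exo1 was the exception. Normexp called 1 repair gene lower, Mus81, and gave a median difference of 0.26 over the repair genes and 0.13 away from chromosomes 4 and 9, in place of 0.46 and 0.28. With no filter on dim probes, which tests more probes, Rad54b, Exo1 and Rad23b lost their calls, as did Rad17 and Exo1 with 75th percentile scaling. Brca1, Trp53bp1 and Rbbp8 gained calls with normexp (adjusted p 0.0370 to 0.0452), and these and Fancd2 with slide as a random block (0.0379 to 0.0497). Slide as a random block called 10 of the 30 genes away from chromosomes 4 and 9 in place of 6. The correlation it estimated between arrays of 1 slide was slightly negative (-0.0434). Its added calls therefore do not show that allowing for the slide strengthens the differences. With slide as a fixed block 97 genes were called, 62 of them higher, and 0 repair genes, and with slide 2 alone 0 and 0; in both the median difference was 0.14 over the repair genes, 0.11 away from chromosomes 4 and 9 and 0.50 on them. There Exo1 (-0.0151), Bard1 (-0.22), Xrcc3 (-0.44), Rad52 (-0.26), Nbn (-0.26), Fanca (-0.13), Fancc (-0.29), Fancg (-0.15) and Wrn (0.0326) changed sign; both fits rest on Epi2 as the only Epi line. Without chromosomes 4, 9 and 10, 2388 genes were called, 1125 higher, and 5 repair genes, all 5 higher, Exo1 having lost its call. With slides 1 and 3 only, with fewer lines, 1894 genes were called, 1087 higher, and 9 repair genes, 9 higher, of which 2 lay away from chromosomes 4 and 9; Nbn (-0.0057), Fancl (-0.00986), Fanci (0.14) and Blm (0.0352) changed sign. With 75th percentile scaling Nbn was at -0.00261. Leaving out 1 line in turn gave 9 to 16 called repair genes, 9 to 16 called higher, 0 to 1 lower and 3 to 8 away from chromosomes 4 and 9. Over those fits the differences near 0 ran from -0.0333 to 0.21 for Xrcc3, -0.0217 to 0.32 for Fancl, -0.16 to 0.12 for Fanci, -0.22 to 0.12 for Blm, -0.0653 to 0.23 for Nbn, -0.0333 to 0.20 for Fancc and -0.0129 to 0.16 for Rad52. In all, 11 of the 26 uncalled genes changed sign somewhere. With the replicate number as a block 10 repair genes and 2949 genes were called; the deviations of same-numbered lines correlated at 0.01 to 0.04, and the numbers were not taken to pair the lines. The causes of these changes were not tested, and 5 lines per group limit every value.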
